A study of Homo sapiens with 6 samples.

Results

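A set of 9 complement genes was followed through the RNA-seq libraries of SACC-83 cells: the proteases C1R, C1S and CFB, the central component C3, the soluble regulators CFI and SERPING1, and the membrane regulators CD46, CD55 and CD59. They are the 9 rows, of 27328 loci in the deposited table, that carry these symbols. They were chosen by their FPKM (fragments scaled by transcript length and sequencing depth) in all 6 libraries, both by group and by replicate number, so the differences of single genes are given as a description, with no test. SACC-83 is an established human line derived from a salivary adenoid cystic carcinoma. The OE group is 3 libraries of SACC-83 cells overexpressing a circular RNA, which the study design names circMYBL1, while the genotype labels read circMYBL1, circMYBL2 and circMYBL3 for OE replicates 1, 2 and 3. The Vec group is 3 libraries of SACC-83 cells with the vector control, labelled WT. The libraries are not stated to come from separate cultures, so the spread behind each p-value may be technical.

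Complement is a cascade of plasma and surface proteins that marks and lyses targets. The classical route starts when C1q, bound to its target, activates the serine proteases C1r and C1s, the lectin route starts from collectins and ficolins, and the alternative route amplifies C3 cleavage through factor B and factor D. Host cells are shielded by membrane proteins that act as cofactors for C3b cleavage (CD46), take apart the convertases (CD55) or block the membrane attack complex (CD59), and in plasma by factor I and the C1 inhibitor SERPING1. The liver makes most plasma complement, and epithelial cells also make several components under interferon and inflammatory cytokines.

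Promoter sequence was read for 6 of the 9 genes, CFB, C1R, CFI, CD46, CD55 and CD59, as 11 windows of 250 bases before a RefSeq start (GRCh38.p14). The letters searched on both strands were TTCNNNGAA, the interferon-gamma-activated site (GAS), GAAA, any 2 bases and GAAA again, the interferon-stimulated response element (ISRE) bound by IRF proteins, and GGG, any 2 bases and TTTCC, an NF-kB site. CFB and C1R differed 11.2 times between their highest and lowest libraries, CD59 1.23 times, and CFI, whose window held no match, 21.1 times. Whether the letters bear on these spans was not tested. The stretch around each match is shown. Each runs 30 bases, 5′ to 3′ on the gene's strand, with the matched letters in capitals.
CFB GAS: cgcttggatgTTCCGGGAAagtgatgtggg
CFB ISRE: acttctgcagTTTCTGTTTCcttgactggc
C1R GAS: gccagtcctaTTCCTGGAAggggaggggag
CD59 GAS: ccacccggccTTCTCAGAAcctgggccagg
The CFB stretches lie at chr6:31945993-31946022 and chr6:31945945-31945974 on the plus strand, the C1R stretch at chr12:7091960-7091989 and the CD59 stretch at chr11:33736588-33736617, both on the minus strand. Counted from the RefSeq start, the CFB matches begin at base -92 (GAS) and -140 (ISRE), and the ISRE letters read on the opposite strand. The C1R match begins at base -86 of the second of its starts, and the CD59 match at base -128 and -184 of a pair of starts that share it. The annotation used for gene positions (GENCODE release 29) has transcripts that begin further upstream, and it places all 250 bases of the CFB window and of the second C1R window in exons, so these stretches are exonic there. The CD59 stretch lies outside its exons. Among all 35116 promoter windows of this length, 6.57% held the GAS letters, 3.02% the ISRE letters and 1.73% the NF-kB letters. The NF-kB letters were in no window of the 6 genes, and CFI, CD46 and CD55 held none of the 3. C1S, C3 and SERPING1 were not analysed here. A match is a description and not a binding site.

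Levels are the deposited FPKM, so levels of different genes can be set beside each other. Fold changes are differences of log2(FPKM + 1), OE minus Vec. Summed FPKM lay between 379404 and 408826 in the OE libraries and between 371776 and 393350 in the Vec libraries, and read depth is unknown from these values. MYBL1, the gene named in the circle, had 359, 44.0 and 2025 FPKM in OE replicates 1, 2 and 3, against 9.04, 7.15 and 10.3 FPKM in the Vec replicates (limma with the replicate block, adjusted p = 0.0225; adjusted p = 1.0 without it). CD44, named in the series title, averaged 154 ± 14.1 FPKM in OE libraries and 119.6 ± 5.87 FPKM in Vec libraries (SD, n = 3 each). The libraries numbered 2 stood apart from the others in both groups, and the comparison of the groups is also given without them.

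The classical-route proteases C1R and C1S, which lie close together on chromosome 12, were expressed in every library and peaked in both libraries numbered 2. C1R (ENSG00000159403, 7080199 to 7092607, minus strand) had 8.27, 41.2 and 7.46 FPKM in OE replicates 1, 2 and 3, against 4.39, 49.0 and 6.97 FPKM in Vec replicates 1, 2 and 3. C1S (ENSG00000182326, 6988259 to 7071032, plus strand) had 11.5, 42.3 and 11.6 FPKM in the OE replicates, against 5.92, 46.9 and 11.3 FPKM in the Vec replicates. For both genes the groups overlapped, Vec replicate 2 was the highest library and Vec replicate 1 the lowest. C1R was 5.24 times and C1S 3.66 times as high in OE replicate 2 as in the mean of OE replicates 1 and 3, and 8.63 and 5.47 times in the Vec libraries. The ratio of C1R to C1S within a library was 0.720, 0.975 and 0.641 in OE replicates 1, 2 and 3 and 0.741, 1.04 and 0.619 in the Vec replicates, so the libraries numbered 2 held relatively more C1R. C1R shares 672 exonic bases with C1RL, its neighbour on the same strand, and C1S shares 229 with EMG1, so reads may be split between them. The sum of C1S and EMG1 was 35.3, 55.0 and 30.7 FPKM in the OE replicates, against 28.9, 55.5 and 28.8 FPKM in the Vec replicates. Replicate 2 of that sum was 1.67 times the mean of replicates 1 and 3 in OE and 1.92 times in Vec, less than for C1S alone. The shared bases are 3.54% of the C1S exons, and whether reads were split was not tested. EMG1 itself was lowest in replicate 2 of each group, with 12.8 FPKM in OE and 8.59 FPKM in Vec, so adding it lowers the ratio whether or not reads were split. The sum of C1R and C1RL was 17.6, 70.9 and 16.6 FPKM in the OE replicates, against 11.1, 83.9 and 17.04 FPKM in the Vec replicates, again highest in the libraries numbered 2, at 4.14 times the mean of the others in OE and 5.96 times in Vec.

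CFB, the protease of the alternative-route convertase, and C3, the protein all routes cleave, were the most abundant of the secreted components. CFB (ENSG00000243649, chromosome 6, 31945650 to 31952084, plus strand) had 19.7, 98.1 and 16.0 FPKM in OE replicates 1, 2 and 3, against 9.85, 111 and 16.8 FPKM in Vec replicates 1, 2 and 3. C3 (ENSG00000125730, chromosome 19, 6677704 to 6730562, minus strand) had 24.8, 71.7 and 23.5 FPKM in the OE replicates, against 17.5, 78.2 and 24.9 FPKM in the Vec replicates. The order of the 6 libraries was again topped by Vec replicate 2 and OE replicate 2, and the groups overlapped. C3 was above CFB in the 4 libraries numbered 1 and 3, and below it in both numbered 2: CFB over C3 was 0.793, 1.37 and 0.684 in OE replicates 1, 2 and 3 and 0.564, 1.41 and 0.672 in the Vec replicates. CFB shares 2249 exonic bases with AL645922.1, which the table lists at 0 in all 6 libraries.

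CFI, the protease that inactivates C3b with a cofactor, was low outside the libraries numbered 2, and SERPING1, the inhibitor of C1r and C1s, was listed at 0 throughout. CFI (ENSG00000205403, chromosome 4, 109740694 to 109802179, minus strand) had 0.766, 6.31 and 0.850 FPKM in OE replicates 1, 2 and 3, against 0.501, 10.6 and 0.855 FPKM in Vec replicates 1, 2 and 3. Its highest library was 21.1 times its lowest (0.501 FPKM), the widest ratio of the 9 genes. On log2(FPKM + 1) it spanned 2.95, less than CFB (3.36) and C1R (3.22). CFI shares 1562 exonic bases with AC126283.2, which was listed at 0 in every library. SERPING1 (ENSG00000149131, chromosome 11, 57597387 to 57614853, plus strand) gives no fold change, and a 0 in a table without counts can also be a failed estimate.

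The membrane regulators were the most abundant of the 9 genes in the libraries numbered 1 and 3, and among them CD46 alone moved with the replicate number by more than 1.5 times. CD46 (ENSG00000117335, chromosome 1, 207752057 to 207795513, plus strand) had 79.7, 149 and 98.5 FPKM in OE replicates 1, 2 and 3, against 82.1, 154 and 91.7 FPKM in Vec replicates 1, 2 and 3. CD55 (ENSG00000196352, chromosome 1, 207321376 to 207386804, plus strand) had 122, 143 and 165 FPKM in the OE replicates, against 130.5, 131 and 158 FPKM in the Vec replicates. CD55 was highest in the libraries numbered 3, and its groups overlapped. CD59 (ENSG00000085063, chromosome 11, 33703010 to 33736491, minus strand) had 54.2, 52.2 and 50.7 FPKM in the OE replicates, against 50.5, 49.1 and 44.1 FPKM in the Vec replicates. It was the steadiest of the 8 genes with a level, with a highest library 1.23 times its lowest, and the OE libraries all lay above the Vec libraries, closest between OE replicate 3 (50.7 FPKM) and Vec replicate 1 (50.5 FPKM). CD59 shares 629 exonic bases with AL049629.2, and the sum of both was 53.5 ± 2.24 FPKM in OE libraries and 48.8 ± 3.30 FPKM in Vec libraries (SD, n = 3 each), with ranges that overlapped.

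**Figure D1:**
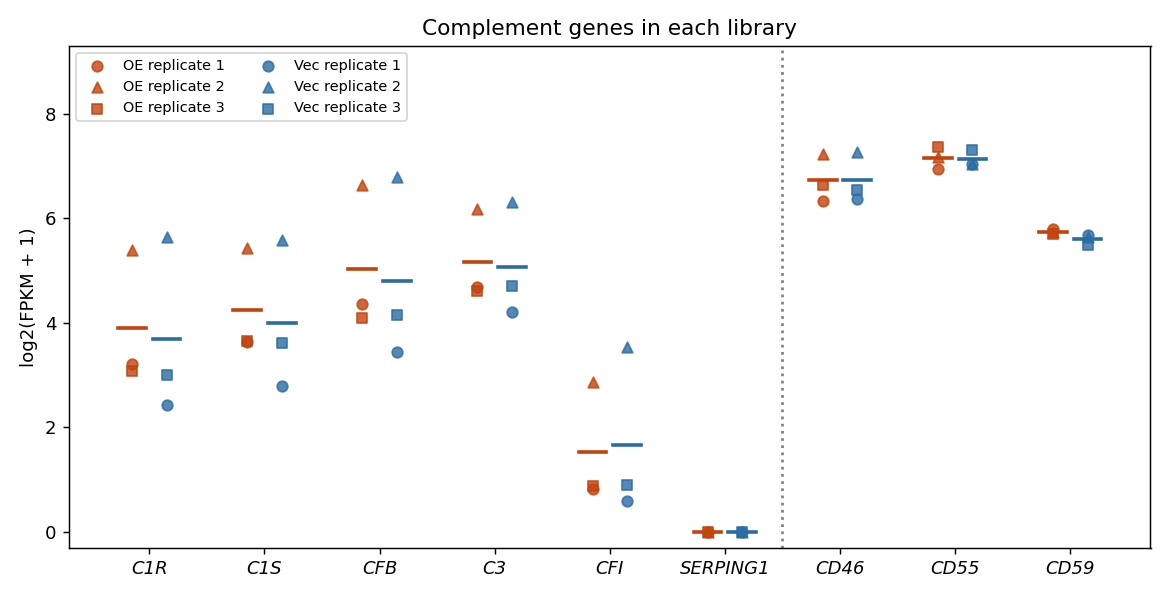
Level of each of the 9 genes as log2(FPKM + 1) in the 3 OE libraries (left of each pair of columns) and the 3 Vec libraries (right), with the replicate number as marker shape and the group mean as a bar; the dotted line parts secreted from membrane proteins. The triangles of C1R, C1S, CFB, C3 and CFI stand above the other libraries of both groups, SERPING1 lies at 0, and CD55 and CD59 span little.

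Ordered by their mean in the OE libraries, the genes ran from CD55 (143 ± 21.6 FPKM) over CD46 (109 ± 35.9), CD59 (52.4 ± 1.78), CFB (44.6 ± 46.3), C3 (40.0 ± 27.5), C1S (21.8 ± 17.7) and C1R (19.0 ± 19.3) to CFI (2.64 ± 3.18 FPKM) and SERPING1 at 0 (SD, n = 3). The Vec libraries gave the same order, with 139.7 ± 15.7 FPKM for CD55, 109 ± 39.1 for CD46, 47.9 ± 3.35 for CD59, 45.7 ± 56.2 for CFB, 40.2 ± 33.1 for C3, 21.4 ± 22.3 for C1S, 20.1 ± 25.1 for C1R and 3.97 ± 5.71 for CFI. Neighbours in this order differed by less than the larger of their SDs, apart from CD46 and CD59. The SDs of the secreted genes include the rise they share in the libraries numbered 2. Within every library C3 was above C1S and C1R above CFI, and C1S was above C1R except in Vec replicate 2. CD55 was below CD46 in both libraries numbered 2. Summed FPKM of CD46, CD55 and CD59 was 3.93, 1.33 and 5.28 times that of C1R, C1S, CFB, C3 and CFI in OE replicates 1, 2 and 3, against 6.90, 1.13 and 4.83 times in the Vec replicates. The ratio was lowest in the library numbered 2 of each group. In bulk libraries, fewer expressing cells and less RNA per cell cannot be told apart.

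By deposited FPKM, 8 of the 9 complement genes overlapped between OE and Vec libraries or were at 0, and CD59 lay higher in OE. Of the 9 genes 7 passed the filter of at least 1 FPKM in at least 3 libraries (all but CFI and SERPING1), among 12064 loci in all. By limma on log2(FPKM + 1), 0 of the 7 passed an adjusted p of 0.05, where 0% of all tested loci did. With replicate number as a block, 0 of the 7 passed, where 0.0995% of loci did, and at an unadjusted p under 0.05 the count was 0 of 7 in both fits, where 0.539% of loci passed without the block and 7.19% with it. The log2 fold changes were 0.25 for C1S (SE 0.78), 0.23 for CFB (SE 0.99), 0.21 for C1R (SE 0.95), 0.13 for CD59 (SE 0.12), 0.09 for C3 (SE 0.63), 0.03 for CD55 (SE 0.17) and 0.00 for CD46 (SE 0.31), with SEs between 0.09 and 0.18 in the block fit. CFI, not tested, differed by -0.14. The median of the 7 was 0.13, against 0.03 over all tested loci. CD59 was 1 gene of the 7 whose ranges did not overlap with OE higher, where 2.50% of all tested loci did so, and 0 of the 7 had OE lower without overlap, where 0.845% of loci did. All 7 log2 differences were above 0 on the deposited scale, although the mean FPKM of CFB, C1R, C3 and CD46 was lower in OE. CD46 turned to -0.02 after TPM or trimmed-mean (TMM) scaling and to -0.04 after quantile scaling, and CD55 to -0.01 after quantile scaling. The non-overlap of CD59 depended on the scale. As a share of summed FPKM, CD59 in OE replicate 3 (50.7 of 387677) lay below Vec replicate 2 (49.1 of 371776).

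The differences between same-numbered libraries were unlike from pair to pair. For replicate 1, C1R was 1.89 times, C1S 1.94 times and CFB 1.998 times as high in OE as in Vec, and C3 1.42 times and CFI 1.53 times. For replicate 2 all 5 secreted components lay lower in OE, at 0.841 times for C1R, 0.901 for C1S, 0.887 for CFB, 0.917 for C3 and 0.597 for CFI. For replicate 3 they lay between 0.941 and 1.07 times. For C1R, C1S, CFB and C3 the widest pair difference was thus that of replicate 1, whose Vec library was the lowest of all 6. Of the 7 filtered genes 3 were at least 1.5-fold higher in OE for replicate 1, where 8.08% of tested loci were, and 0 of the 7 for replicates 2 (3.26% of loci) and 3 (2.08%). None of the 7 was at least 1.5-fold lower in OE for replicate 1, 2 or 3, where 4.02%, 1.74% and 2.27% of loci were. The membrane regulators stayed between 0.931 and 1.15 times in every pair, and CD59 was higher in OE in 3 of 3 pairs, by 1.07, 1.06 and 1.15 times. Leaving out both libraries numbered 2, the log2 fold changes were 0.45 for C1S, 0.44 for CFB and C1R and 0.20 for C3. By limma 0 of 7 passed the adjusted p of 0.05, where 10 of 12064 loci did with group alone and 148 with the block. At an unadjusted p under 0.05 there were 0 of 7 with group alone, where 318 loci passed. With the block there were 3 of 7, where 862 of 12064 loci passed and limma pooled the spread of all loci fully. Leaving out single libraries moved CFB between -0.57 (without OE replicate 2) and 1.24 (without Vec replicate 2), C1R between -0.54 and 1.19, C1S between -0.35 and 1.04 and C3 between -0.42 and 0.71, while CD59 stayed between 0.07 and 0.17.

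**Figure D2:**
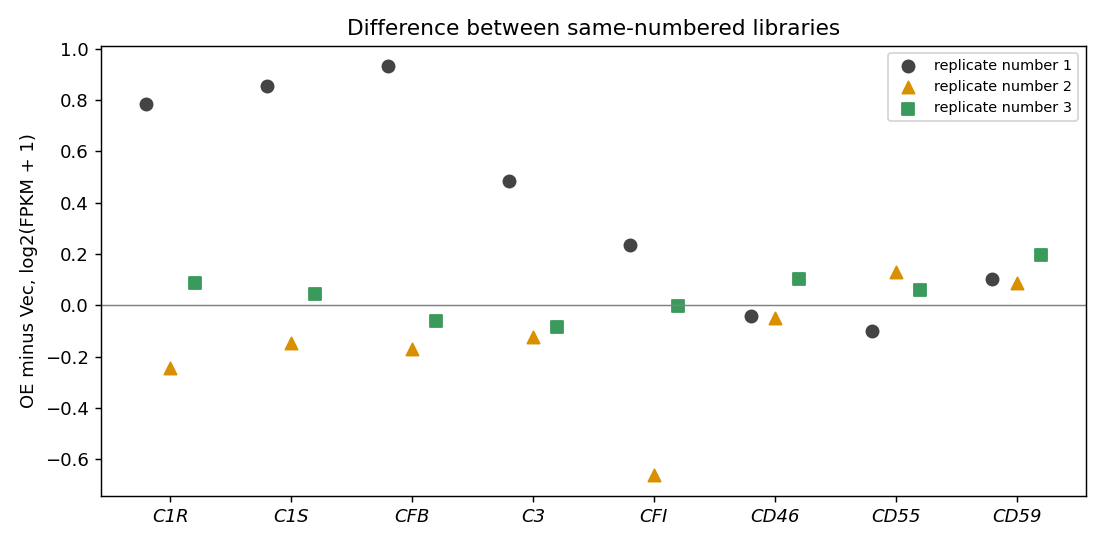
Difference in log2(FPKM + 1), OE minus Vec, between the libraries of the same replicate number for the 8 genes with a level; the line marks 0. C1R, C1S, CFB and C3 lie at 0.48 to 0.93 for replicate 1 and below 0 for replicate 2, while CD59 lies above 0 for all 3.

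Both libraries numbered 2 were the highest for every secreted component with a level. In limma's F test of replicate number, 5 of the 7 tested genes passed an adjusted p of 0.05, where 46.5% of all loci did. Without the libraries numbered 2, 0 of the 7 passed, where 447 of 12064 loci did. Replicate 2 was at least 2-fold above both other libraries, in the OE and in the Vec group, for 4 of the 7 (C1R, C1S, CFB and C3), where 3.72% of tested loci were; CFI, outside the filter, also was. Since the genes were chosen with this pattern in view, nothing follows from the share. In the OE group the excess of replicate 2 over the mean of replicates 1 and 3 ran from 2.97 times (C3) to 7.81 times (CFI), and in the Vec group from 3.69 times (C3) to 15.6 times (CFI). CD46 was 1.67 and 1.77 times as high in replicate 2 of OE and Vec, CD55 0.999 and 0.906 times, and CD59 0.995 and 1.04 times.

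CFB and C1R had the most similar profiles of the 9 genes, although they lie on different chromosomes. Likeness was taken as the root mean square difference of log2(FPKM + 1) over the 6 libraries, each gene centred on its own mean, for the 5 genes that spanned at least 1 on that scale. CFB and C1R differed by 0.08, and C1S and C3 by 0.23. Of 11990 tested loci outside the gene lists, those nearest to C3 were UPK3B (0.05), FOLR1, a folate receptor (0.06), and CD82, a tetraspanin (0.06). Nearest to C1S were GRB7, a signalling adaptor (0.12), BICDL1 (0.12) and the keratin KRT6C (0.15). Nearest to CFB were the kallikrein protease KLK11 (0.23), RAET1G, a ligand of an activating receptor of natural killer cells (0.27), and PRXL2A (0.29). C1R was nearest to AC011473.4 (0.21), KLK11 (0.22) and PRXL2A (0.23), and CFI to PRXL2A (0.10), the lysyl oxidase relative LOXL4 (0.13) and AOC1, which breaks down histamine (0.15). The likeness rests on 6 libraries, and all of these loci were highest in the libraries numbered 2.

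The rest of the complement system was mostly at or near 0 in these cells. Of 60 complement genes, the 9 included, 21 were listed at 0 in every library and 38 stayed under 1 FPKM everywhere. All 10 recognition genes stayed under 1 FPKM, among them C1QA, C1QB and C1QC, the subunits of C1q, which were at 0, and all 7 terminal components, C5 to C9, did too. Of 51 other complement genes 10 passed the filter. By limma 0 of the 10 passed an adjusted p of 0.05 in OE against Vec, where 0% of loci did. The block fit also gave 0 of the 10, where 0.0995% of loci passed. At an unadjusted p under 0.05 there were 0 in each, where 0.539% of loci passed without the block and 7.19% with it. Of the 10 genes 4 were higher and 6 lower in OE, with a median log2 fold change of -0.08. By replicate number 8 of the 10 passed (limma, adjusted p under 0.05), where 46.5% of loci did, and they did not all move one way. C1RL, a C1r-like protease, was 3.21 times as high in replicate 2 as in the mean of replicates 1 and 3 in OE and 4.15 times in Vec. CFD, the factor D protease that cleaves factor B, was 2.49 times as high in OE and 2.69 times in Vec. C4BPB, a chain of the C4b-binding protein, had 7.92, 2.34 and 8.81 FPKM in the OE replicates, against 12.1, 1.86 and 9.53 FPKM in the Vec replicates, and so was lowest in the libraries numbered 2. C1QBP, a mostly mitochondrial protein that binds C1q heads, averaged 129 ± 43.3 FPKM in OE and 119 ± 37.5 FPKM in Vec libraries, and was 0.596 and 0.542 times as high in replicate 2. The chaperone clusterin (CLU) averaged 18.9 ± 3.90 FPKM in OE and 23.0 ± 8.62 FPKM in Vec, the integrin chain ITGB2 6.37 ± 0.415 and 5.70 ± 0.636 FPKM, THBD, thrombomodulin, 3.66 ± 0.287 and 4.31 ± 1.03 FPKM. C4A and C4B are near-identical copies whose reads can be split, and both stayed at or under 2.02 FPKM.

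**Figure D3:**
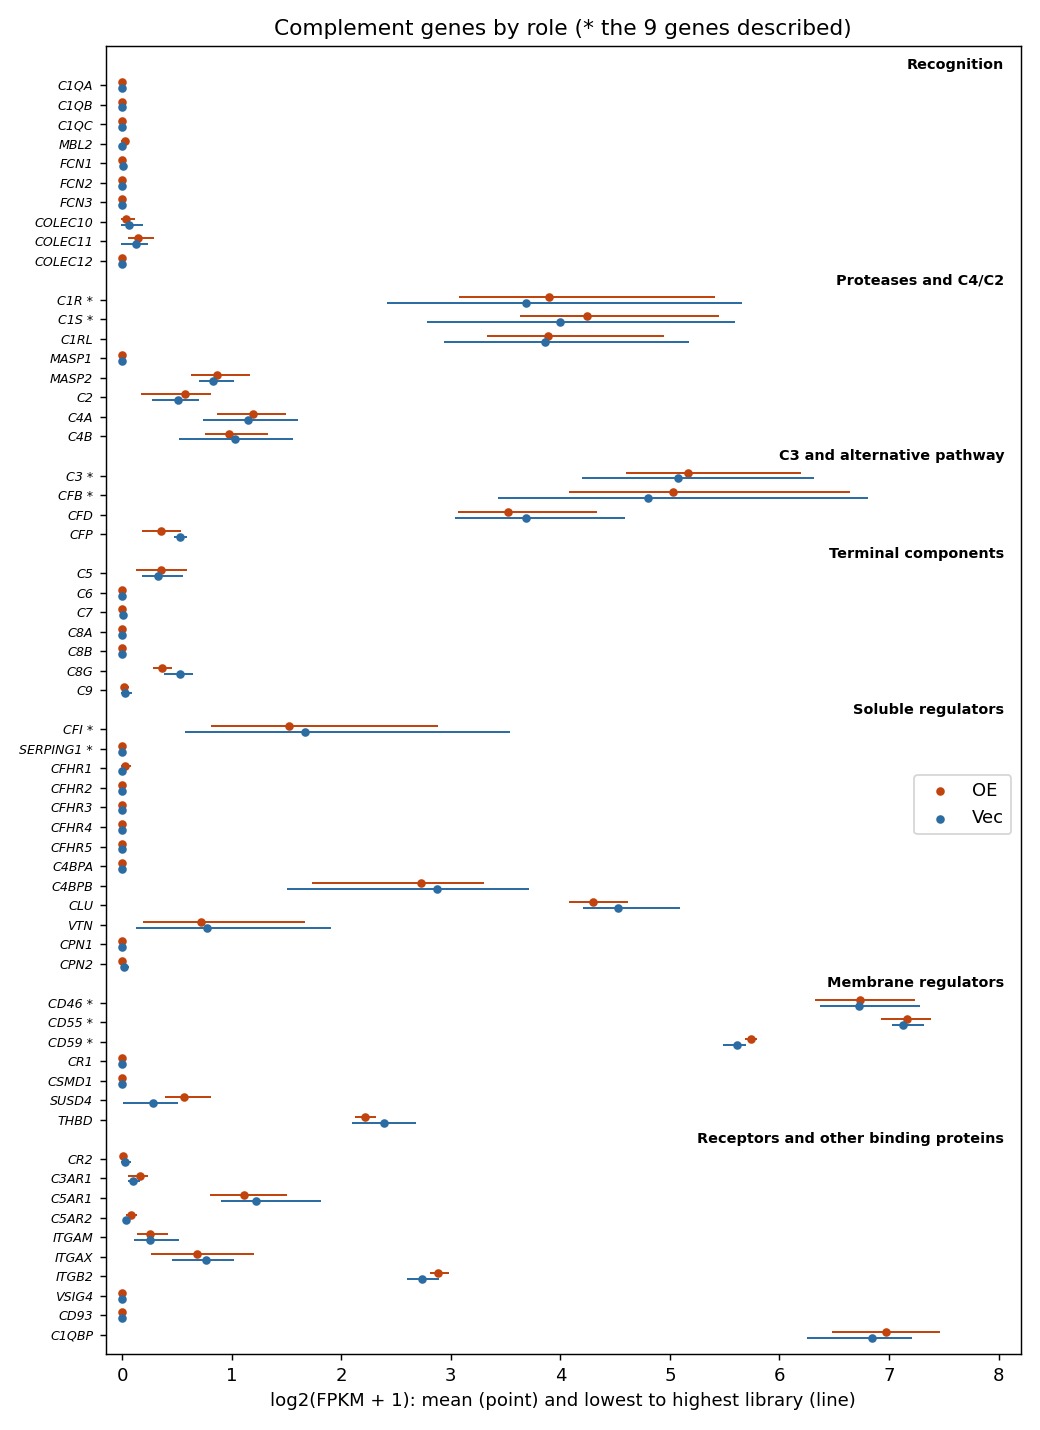
Mean log2(FPKM + 1) of the complement genes reported here in OE (upper) and Vec (lower) libraries, by role; lines run from the lowest to the highest of the 3 libraries, and an asterisk marks the 9 genes described. Recognition and terminal genes lie near 0, while CD46, CD55, CD59 and C1QBP have the highest means.

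**Figure D4:**
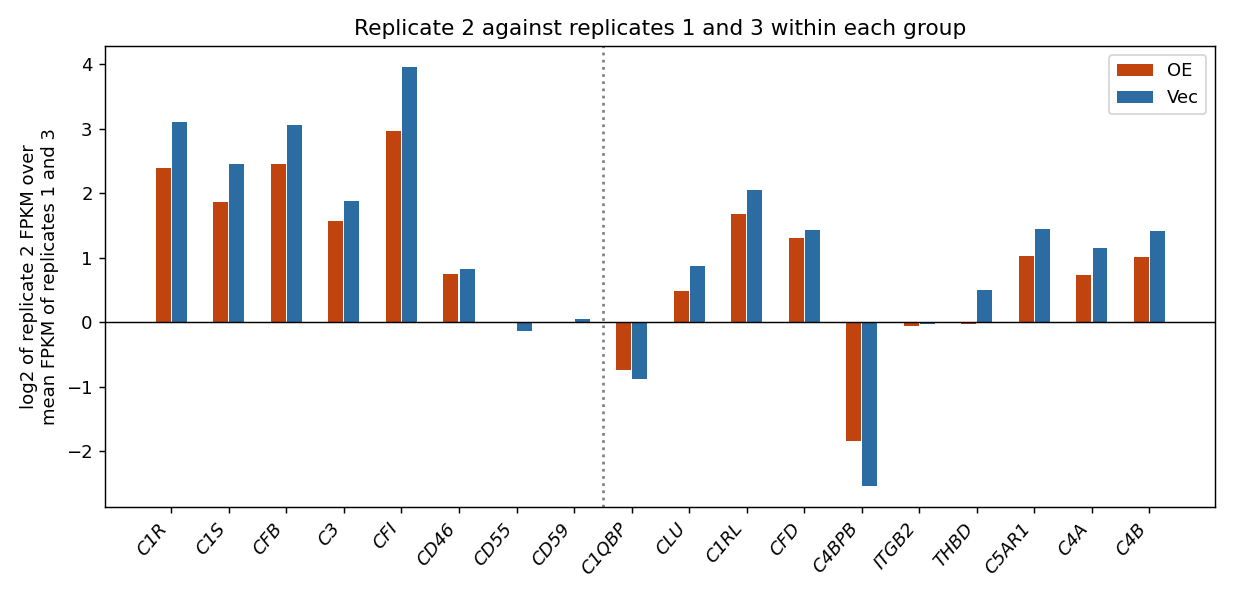
Log2 of the FPKM of replicate 2 over the mean FPKM of replicates 1 and 3, within OE and within Vec, for the 8 described genes with a level (left of the dotted line) and the 10 other complement genes that passed the filter. C1R, C1S, CFB, C3, CFI, C1RL, CFD, C5AR1 and C4B are above 1 in both groups, and C4BPB and C1QBP are the lowest in both.

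Among receptors and transcription factors known to act on complement genes, IRF9 passed the test in the fit with the replicate block and no gene did in the fit without it. Of 22 listed genes 19 passed the filter, 10 higher and 9 lower in OE, with a median log2 fold change of 0.03. By limma 0 of the 19 passed an adjusted p of 0.05 in OE against Vec, where 0% of loci did. At an unadjusted p under 0.05 there was 1, where 0.539% of loci passed. With the replicate block 1 rose, IRF9, where 0.0995% of loci passed, and 3 of the 19 had an unadjusted p under 0.05, where 7.19% of loci did. IRF9, which gives the ISGF3 complex of interferon signalling its DNA contact, averaged 5.16 ± 1.77 FPKM in OE and 1.64 ± 0.430 FPKM in Vec libraries, and was higher in 3 of 3 pairs (log2 fold change 1.20, limma with the replicate block, adjusted p = 0.00569; adjusted p = 1.0 without it). IRF9 shares 1838 exonic bases with AL136295.5 on the same strand, so its reads may be split. The sum of both was 10.8, 14.3 and 13.4 FPKM in the OE replicates, against 7.53, 9.42 and 6.43 FPKM in the Vec replicates, a log2 difference of 0.66 with ranges that did not overlap. By replicate number 15 of the 19 passed (limma, adjusted p under 0.05), where 46.5% of loci did. IRF1, a factor that binds ISRE letters, had 18.2, 49.0 and 18.4 FPKM in the OE replicates, against 15.8, 50.9 and 20.9 FPKM in the Vec replicates, so both libraries numbered 2 were high. IFNGR1, a chain of the interferon-gamma receptor, was 1.96 times as high in replicate 2 in OE and 2.33 times in Vec, TNFRSF1A, the main TNF receptor, 1.76 and 1.96 times, and STAT3 1.53 and 1.47 times. The NF-kB subunits were lower in replicate 2, with 0.547 and 0.557 times for NFKB2 and 0.696 and 0.778 times for RELA. CEBPB, a factor of the acute-phase response, averaged 27.0 ± 4.34 FPKM in OE and 19.0 ± 6.86 FPKM in Vec libraries (limma, adjusted p = 1.0; 0.521 with the block). Whether any of these bear on the complement genes was not tested.

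CD55 and CD59 are held in the membrane by a glycolipid (GPI) anchor, and no enzyme of its assembly passed the test between OE and Vec. Of 29 listed genes 27 passed the filter, 18 higher and 9 lower in OE, with a median log2 fold change of 0.04. By limma 0 of the 27 passed an adjusted p of 0.05, with or without the block, where 0.0995% and 0% of loci did. At an unadjusted p under 0.05 there were 0 without the block and 1 with it, where 0.539% and 7.19% of loci passed. By replicate number 9 of the 27 passed, where 46.5% of loci did. PIGT, of the transamidase that attaches the anchor, averaged 84.9 ± 8.52 FPKM in OE and 80.2 ± 2.30 FPKM in Vec libraries. GPAA1, of the same enzyme, averaged 29.9 ± 9.12 and 24.0 ± 1.61 FPKM, with OE replicate 1 highest at 40.4 FPKM. PIGS, also of the transamidase, averaged 32.1 ± 7.56 and 32.0 ± 6.80 FPKM and was 1.47 times as high in replicate 2 in OE and 1.42 times in Vec. PIGU, another subunit, averaged 19.7 ± 1.81 FPKM in OE and 19.7 ± 1.90 FPKM in Vec libraries. DPM1 and DPM2, of the dolichol-phosphate mannose synthase that supplies mannose, averaged 73.9 ± 5.86 and 30.1 ± 7.34 FPKM in OE and 67.7 ± 7.83 and 28.5 ± 2.55 FPKM in Vec. PGAP2 and PIGC averaged 23.7 ± 4.74 and 16.1 ± 3.27 FPKM in OE and 24.4 ± 4.55 and 15.3 ± 2.05 FPKM in Vec.

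Hepatocyte markers, of the main source of plasma complement, were at or near 0, while some markers of other cell types were detected. The 9 hepatocyte markers, ALB and APOA1 among them, summed to at most 0.0563 FPKM in OE and 0.121 FPKM in Vec libraries, and 6 were at 0 throughout. The 9 myeloid markers summed to 2.04 to 2.50 FPKM in OE and 1.48 to 2.39 FPKM in Vec libraries, of which CSF1R made up most, and PTPRC, LYZ, CD163, AIF1 and TYROBP were at 0. The myeloid sum was highest in the library numbered 2 of each group. The 8 fibroblast markers summed to 3.13 to 9.13 FPKM in OE and 4.18 to 11.8 FPKM in Vec libraries, almost all COL1A1, which passed the filter at 2.95, 8.67 and 4.12 FPKM in the OE replicates, against 4.57, 11.1 and 4.02 FPKM in the Vec replicates, with PDGFRA and COL1A2 at 0 and DCN at most 0.0564 FPKM. The fibroblast sum was also highest in the library numbered 2 of each group. The 7 endothelial markers summed to 0.394 to 1.79 FPKM in OE and 0.300 to 1.96 FPKM in Vec libraries, again highest in the libraries numbered 2. The secreted complement components were high in the same libraries, and the part of these markers in that was not tested. The 10 epithelial markers summed to 2516 to 3016 FPKM in OE and 2523 to 2648 FPKM in Vec libraries. They did not follow replicate number in 1 direction. Of the 10 markers 9 passed the filter. KRT19 did not, and averaged 0.434 FPKM in OE and 0.598 FPKM in Vec libraries. KRT5, a basal keratin, had 94.9, 347 and 104 FPKM in the OE replicates, against 119.9, 412 and 142 FPKM in the Vec replicates, and KRT14, KRT17, CDH1 and TP63 were also highest in the library numbered 2 of each group. KRT7, a luminal keratin, had 679, 304 and 428 FPKM in the OE replicates, against 512, 234 and 435 FPKM in the Vec replicates, and KRT8 and KRT18 were also lowest in the library numbered 2 of each group.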

How the data were processed

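RNA of 6 libraries of SACC-83 cells (3 OE, 3 Vec, grouped by sample title) was TRIzol-extracted and made into mRNA libraries, per the labels' protocols. The authors deposited FPKM per locus; the submitters' processing notes name HISAT2 and GRCh38. The counting tool, its annotation and its strand setting: not given in the sources used here. No whole-read steps were found: at most 0.720% of low loci shared the commonest ratio between 2 libraries, within a tolerance of 0.001 on the log scale. Depth and counting error are therefore unknown. The 12064 loci that reached 1 FPKM in 3 or more libraries were fitted as log2(FPKM + 1) in R 4.3.3 by limma 3.58.1, with trended eBayes, 2-sided tests and p-values adjusted by Benjamini-Hochberg over these loci, with group alone, with replicate number as a block, and by an F test of replicate number. The fit with group alone was tested on simulated data without a replicate effect. That simulation does not cover the block fit or the F test. Positions are those of GENCODE release 29 (GRCh38).

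What a replicate number marks is not in the labels. Deviations from the group means, across genes, correlated between same-numbered libraries at 0.725, 0.881 and 0.529, all above the limit of 0.1. Each library correlated best with its own number (other numbers -0.818 to 0.424), so the numbers were taken to pair the libraries on this evidence. OE replicate 1 with Vec replicate 3 (0.412) and OE replicate 3 with Vec replicate 1 (0.424) also passed the limit. The limit therefore does not part numbers 1 and 3.

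The genes, lists and tests were chosen with earlier results of these data known. The text names the 9 genes, MYBL1 and CD44, up to 8 genes per list with the highest mean FPKM, any list gene past an adjusted p of 0.05, and the 3 nearest loci; genes outside this rule (C4A, C4B, C1QA, C1QB, C1QC, the markers and the genes of the closing section) are named as examples of their list after their values were seen. Among the genes this rule names or the lists hold, 2 are not reported here by name. Alternatives were other pseudocounts, filters, scalings, weights, the block and leaving out libraries.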

Additional observations from a re-analysis of the deposited data

How the results depend on the processing

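For the 9 complement genes, the count past an adjusted p of 0.05 in OE against Vec stayed at 0 in every alternative run, as did those of the other complement genes and the GPI anchor genes. All 141 log2 fold changes of single genes under alternatives moved by less than the SD between libraries, a wide margin here. Part of them could not move, since changing only the filter, the eBayes trend or the block leaves a fold change as it was. When 1 library was left out, 6 of the 7 filtered genes (all but CD59) turned sign. Over all loci, 0 were called in OE against Vec by limma (65 at an unadjusted p under 0.05), 12 with the replicate block, 346 with array weights, whose estimation stopped before it converged, and 10 without replicate 2 of both groups, an alternative added after the data were seen. Leaving out single libraries gave 0 to 1, and a replicate number of both groups in the block fit 14 (without replicate 1), 22 (without replicate 3) and 148 (without replicate 2, where limma pooled the spread of all loci fully). Of the complement inducers 0 were called by the group alone, 1 was called with the block, 3 with array weights, and 1 to 2 in the block fit without a replicate number. By replicate number 5605 loci were called, 3389 without a filter on low values, and 447 (without replicate 2) to 5848 when a number was left out; of the described genes 5 were called, and 0 to 5 when a number was left out. Of the genes named, the block changed the calls of IRF9 and MYBL1 (adjusted p = 0.0225, against 1.0 without it). Scaling moved the median of all loci by less than 0.1 (log2). With 3 libraries per group and unknown depth, small differences such as that of CD59 cannot be told from the spread between libraries.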

Other observations

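Below the filter, VTN was also highest in the libraries numbered 2, given as values without a test and named after they were seen. VTN, vitronectin, which binds terminal complexes, had 0.216, 2.16 and 0.151 FPKM in the OE replicates, against 0.220, 2.72 and 0.0997 FPKM in the Vec replicates. SUSD4, a membrane regulator, was lowest in the library numbered 2 within each group, with 0.748, 0.317 and 0.395 FPKM in the OE replicates, against 0.415, 0.0112 and 0.262 FPKM in the Vec replicates.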
